A study of Mus musculus with 12 samples.

Results

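The mouse Fc-gamma receptors, their signalling chains and a related receptor were followed across RAW264.7 cells in which Synbindin had been silenced. The 7 genes were Fcgr1, Fcgr2b, Fcgr3, Fcgr4, Fcer1g, Tyrobp and Trem2, taken by symbol from a table of 53801 gene records. Each symbol was found once, and all 7 passed the filter on low values, among 13078 genes tested. RAW264.7 is a mouse macrophage-like cell line, and Synbindin is the protein encoded by Trappc4, a subunit of the TRAPP complexes that tether transport vesicles. RNA-seq was run on 12 libraries in 4 groups of 3. The groups were Synbindin siRNA after 4 h of lipopolysaccharide (LPS) at 100 ng/ml, control siRNA after the same LPS exposure, Synbindin siRNA without LPS, and control siRNA without LPS. All groups shared the cell line, passages 3 to 5 and exposure to an siRNA, and LPS is the bacterial molecule that activates Toll-like receptor 4. Cells that received Synbindin siRNA are called silenced cells here. The labels number the replicates without saying if each was its own transfection, and the p-values therefore cover only the spread among these libraries, which may be technical.

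Fc-gamma receptors bind the constant part of IgG and let macrophages take up and respond to antibody-coated particles. Fcgr1, Fcgr3 and Fcgr4 are activating receptors that signal through the FcR gamma chain, encoded by Fcer1g, whose cytoplasmic ITAM is phosphorylated by Src-family kinases and recruits the kinase Syk. Fcgr2b carries an ITIM of its own and is inhibitory, through the lipid phosphatase SHIP1. Tyrobp encodes DAP12, another ITAM adaptor, which pairs with receptors such as TREM2, a receptor for lipids and lipoproteins on macrophages and microglia.

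All positions are on GRCm38. Fcgr2b (ENSMUSG00000026656, chr1:170958617-170976547, minus strand), Fcgr4 (ENSMUSG00000059089, chr1:171018920-171029761, plus), Fcgr3 (ENSMUSG00000059498, chr1:171051174-171064935, minus) and Fcer1g (ENSMUSG00000058715, chr1:171229572-171234365, minus) lie close together on chromosome 1. Fcgr1 (ENSMUSG00000015947, chr3:96282909-96293969, minus), Tyrobp (ENSMUSG00000030579, chr7:30413760-30417585, plus) and Trem2 (ENSMUSG00000023992, chr17:48346401-48354147, plus) lie elsewhere. Values are FPKM, that is, fragments relative to transcript length and to the mapped total of the library, so levels can be set beside each other across genes.

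Fcgr2b and Fcgr3 share sequence, which is shown here because it bears on how far their values can be told apart. The longest run common to transcripts Fcgr2b-201 and Fcgr3-201 was 129 bases, in exons 3 and 4 of each gene and all coding, on the minus strand. It is in capitals in the lines that follow, with 30 bases on each side in lower case, from the GENCODE M21 transcripts. The lower-case bases differ at 4 positions before the run and at 1 position after it.
Fcgr2b-201: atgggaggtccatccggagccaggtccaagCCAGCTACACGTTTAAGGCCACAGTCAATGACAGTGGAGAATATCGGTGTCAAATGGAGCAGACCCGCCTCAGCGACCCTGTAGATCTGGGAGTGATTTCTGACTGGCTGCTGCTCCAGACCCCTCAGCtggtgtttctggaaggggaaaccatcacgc
Fcgr3-201: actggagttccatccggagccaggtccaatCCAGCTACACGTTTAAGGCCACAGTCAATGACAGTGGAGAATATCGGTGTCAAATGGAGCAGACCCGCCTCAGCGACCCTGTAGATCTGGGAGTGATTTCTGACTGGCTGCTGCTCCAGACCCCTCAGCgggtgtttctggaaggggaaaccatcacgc
Of all 50-base windows of Fcgr3-201, 12.8% also occur in Fcgr2b transcripts, and at 100 bases 3.53% do. Of those of Fcgr2b-201, 11.4% occur in transcripts of another gene, 166 windows in Fcgr3 and a further 231 only in some of 46 other genes; at 100 bases 3.54% do. No 50-base window of the Fcgr1, Fcgr4, Fcer1g, Tyrobp or Trem2 transcript examined occurs in another gene's transcripts. Read length and the counting of reads that match more than one gene are not stated in the labels, and the Fcgr2b and Fcgr3 values are uncertain to the extent that such reads were divided, between the pair or, for Fcgr2b, with the other genes. Fcgr2b also overlaps the antisense gene Gm38204, Fcgr3 overlaps Mir6546 and Fcgr4 overlaps Gm26110.

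RefSeq promoters (GRCm38.p6, 250 bases before to 50 after the start) were at hand for 6 of the 7 genes, Tyrobp being the other. They were searched on both strands for 5 motifs. The PU-box core GAGGAA, the kind of site bound by the myeloid factor PU.1, was present in 4 of 6, in Fcgr1, Fcgr3, Fcgr4 and Trem2, and in 28.3% of all 32851 promoters. In each of these 4 it lies on the opposite strand and so reads TTCCTC, in capitals in these lines, which run in the direction of the gene.
Fcgr1, chr3:96293999-96294044, minus: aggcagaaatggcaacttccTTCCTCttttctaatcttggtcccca
Fcgr3, chr1:171059384-171059429, minus: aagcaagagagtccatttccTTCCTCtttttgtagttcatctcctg
Fcgr4, chr1:171018884-171018929, plus: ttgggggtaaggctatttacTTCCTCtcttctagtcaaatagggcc
Trem2, chr17:48346341-48346386, plus: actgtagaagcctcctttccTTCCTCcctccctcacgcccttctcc
The first base of the core lies at -55 in Fcgr1, -6 in Fcgr3, -22 in Fcgr4 and -40 in Trem2, counted from the RefSeq start. Fcgr3 has 2 RefSeq starts, and from the second the core lies at -15. Both starts lie inside the GENCODE gene, which begins upstream at chr1:171064935, and which start these cells use was not examined. The promoters of Fcgr1 and Fcgr4, the receptors called as higher after LPS in both cell groups, are given whole, with every motif match in capitals.
Fcgr1, chr3:96293920-96294219, minus: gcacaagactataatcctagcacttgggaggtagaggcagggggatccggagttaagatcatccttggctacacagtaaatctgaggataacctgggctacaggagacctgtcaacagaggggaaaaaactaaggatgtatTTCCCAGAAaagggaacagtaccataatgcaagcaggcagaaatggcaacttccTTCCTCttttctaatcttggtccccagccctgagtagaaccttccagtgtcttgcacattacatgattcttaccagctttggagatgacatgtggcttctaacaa
Fcgr4, chr1:171018676-171018975, plus: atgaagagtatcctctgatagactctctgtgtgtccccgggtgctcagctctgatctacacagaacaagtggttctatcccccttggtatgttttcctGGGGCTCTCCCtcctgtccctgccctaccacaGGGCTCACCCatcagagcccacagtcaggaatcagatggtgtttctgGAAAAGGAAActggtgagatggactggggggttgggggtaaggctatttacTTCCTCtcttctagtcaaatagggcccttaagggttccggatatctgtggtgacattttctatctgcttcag
The Fcgr1 promoter holds 1 gamma-activated sequence, TTCNNNGAA with the form TTCCCAGAA at -109, and this motif occurs in 8.3% of all promoters. The Fcgr4 promoter holds 1 interferon-stimulated response element, GAAA and GAAA with NN between them, in the form GAAAAGGAAA at -73, which occurs in 3.44%. The loose NF-kB pattern (GGG, then NNNNN, then CC) was found in Fcgr4 at -152, -151 and -120, in Fcgr2b, Fcgr3 and Fcer1g as well, and in 50.8% of all promoters. The AP-1 pattern TGANTCA was found in Trem2 only among the 6, at -9, and in 7.81% of promoters. No 2 different motifs overlapped, although NF-kB matches overlapped each other in Fcgr2b, Fcgr3 and Fcgr4. These matches describe letters and do not show that a factor binds.

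The targeted gene was lower in the silenced cells. After LPS, Trappc4 was 5.86, 7.71 and 8.26 FPKM in silenced cells, against 13.8, 15.7 and 9.45 FPKM in control cells. Without LPS it was 4.35, 7.17 and 6.15 FPKM in silenced cells, against 14.1, 13.1 and 12.5 FPKM in control cells. The groups did not overlap with or without LPS, and the log2 differences of -0.74 after LPS and -1.07 without LPS had adjusted p of 0.120 and 0.0558, so neither was called. The difference without LPS was called with a filter at FPKM 5, with quantile normalization (adjusted p = 0.0355) and without control replicate 3 after LPS, and the one after LPS in none of the other fits. Trappc4 overlaps Rps25 on the other strand. Each library had 11672 to 12351 genes at FPKM of at least 1 and a rough depth, estimated from steps in low values, of 7.36 to 17.6 M fragments. Libraries of a group correlated at Spearman 0.959 to 0.972 across the tested genes, which are not independent replicates. Of 10 macrophage markers 9 reached FPKM 1 (Mertk did not), while none of the B cell, T and NK cell, neutrophil, fibroblast and epithelial markers did. The summed macrophage markers were 1985 to 2711 FPKM in silenced and 1479 to 1877 FPKM in control cells after LPS, and 2147 to 2616 against 1562 to 1718 FPKM without LPS. Lyz2, the macrophage lysozyme, and Cd14, the LPS co-receptor, held most of that difference. Lyz2 averaged 1097 FPKM in silenced against 463 FPKM in control cells after LPS, and 1214 against 554 FPKM without LPS, and Cd14 averaged 601 against 416 FPKM and 291 against 187 FPKM. Without Lyz2 and Cd14, a sum added after the values were seen, the markers were 704 to 796 FPKM in silenced and 738 to 916 FPKM in control cells after LPS, and 883 to 949.98 against 854 to 961 FPKM without LPS, overlapping both times. Of the 9 markers, 6 had a higher and 3 a lower mean in silenced cells in each comparison. The lower ones after LPS were Cd68 (390.3 against 453 FPKM), Csf1r (174 against 203 FPKM) and Spi1 (149 against 152 FPKM), and without LPS they were Spi1, Itgam and Adgre1. Itgam has 2 records in the table, and the first was used. Without LPS the first averaged 13.4 FPKM in silenced and 15.8 FPKM in control cells. The second went the other way there, at 22.2 against 18.6 FPKM, and ranged from 0.05 to 38.7 FPKM over all libraries. Mast cells and basophils also use the FcR gamma chain, and 6 of their 7 markers were at 0 in all libraries. The other, Hdc, was 11.5 to 12.1 FPKM in silenced and 7.35 to 8.46 FPKM in control cells after LPS, and at most 0.234 and 0.347 FPKM without LPS.

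The signalling chains were the most abundant of the 7 transcripts. Averaged over 12 libraries, Tyrobp was at 353 FPKM, above 99.3% of the genes tested, and Fcer1g was at 128.1 FPKM, above 97.3%. Trem2 at 28.6 FPKM and Fcgr1 at 21.6 FPKM followed, above 86.2% and 81.1% of genes. Fcgr3, Fcgr4 and Fcgr2b were at 8.30, 7.96 and 7.42 FPKM. In every group each Tyrobp library lay above each Fcer1g library, and Fcer1g above all receptors. After LPS Fcgr1 stood above Trem2, and without LPS Trem2 stood above Fcgr1, in silenced and control cells alike and without overlap of libraries. Lower in that order neighbours often overlapped. After LPS these were Fcgr4 and Fcgr2b in silenced cells, and Fcgr4 with Fcgr3 and Fcgr3 with Fcgr2b in control cells. Without LPS they were Fcgr3 and Fcgr2b in silenced cells, and Fcgr1 with Fcgr3 and Fcgr4 with Fcgr2b in control cells.

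**Figure D1:**
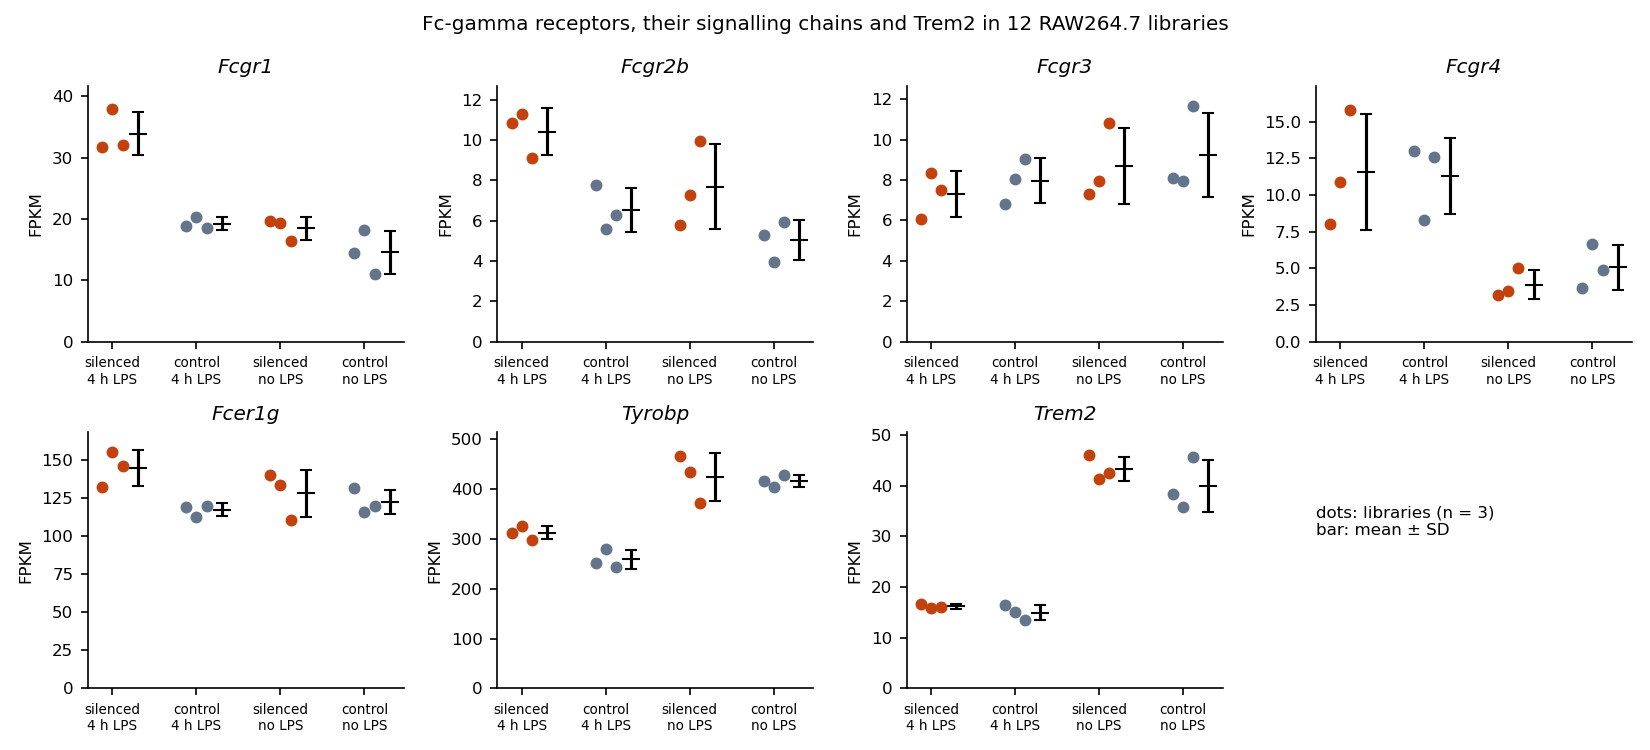
FPKM (vertical axes, from 0) of the 7 genes in 12 libraries, with silenced cells in orange and control cells in grey, after 4 h of LPS and without LPS. Dots are libraries and bars are mean ± SD (n = 3); Fcgr1 after LPS lies between 31.8 and 38.0 FPKM in silenced cells and between 18.6 and 20.4 FPKM in control cells.

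The first comparison asked how silencing altered the genes with and without LPS. Fcgr1, the high-affinity IgG receptor, was the single gene of the 7 that passed the test, and did so after LPS. Differences are log2(FPKM + 1), silenced minus control, tested with limma over all genes with Benjamini-Hochberg adjustment. Since the pseudocount of 1 is added before the logarithm, they understate changes of low genes. In bulk RNA, fewer cells that express a gene cannot be told apart from less RNA per cell.

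After LPS, Fcgr1 was 31.8, 38.0 and 32.0 FPKM in silenced cells, against 18.8, 20.4 and 18.6 FPKM in control cells. Every silenced library was above every control library, and Fcgr1 rose by 0.78 ± 0.15 (SE; 95% interval 0.46 to 1.10), with an adjusted p of 0.0417. That call was close to the threshold: over the other settings tried the difference stayed between 0.70 and 0.87, while the adjusted p ranged from 0.0194 to 0.167. It was lost with no filter (adjusted p = 0.0792), with quantile normalization (0.0723), with only the groups compared (0.0563) and with no intensity trend (0.0634). When 1 library was left out, the call held without replicate 3 of the silenced cells or without replicate 2 or 3 of the control cells, all 3 of them libraries without LPS. It was lost without each of the other 9 libraries, with adjusted p up to 0.167 when replicate 2 of the silenced cells after LPS was left out. Without LPS, Fcgr1 was 19.7, 19.4 and 16.4 FPKM in silenced cells, against 14.4, 18.1 and 11.1 FPKM in control cells. Control library 2 lay within the silenced range, and the difference of 0.34 ± 0.15 had an adjusted p of 0.397.

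Fcgr3 and Fcgr4, the other activating receptors, showed no such separation. Fcgr3, a low-affinity receptor, was 6.08, 8.35 and 7.50 FPKM in silenced against 6.80, 8.07 and 9.03 FPKM in control cells after LPS, and 7.30, 7.97 and 10.8 against 8.12, 7.93 and 11.7 FPKM without LPS. The groups overlapped in both cases. Its differences were -0.11 (95% interval -0.50 to 0.28) after LPS and -0.08 (-0.46 to 0.31) without LPS, with adjusted p of 0.851 and 0.906. Fcgr4, which binds IgG2 subclasses in the mouse, was 8.04, 10.9 and 15.8 FPKM in silenced against 13.0, 8.30 and 12.6 FPKM in control cells after LPS. Without LPS it was 3.20, 3.44 and 5.06 FPKM in silenced against 3.67, 6.69 and 4.86 FPKM in control cells. Its libraries spread widely in both groups, so the intervals are broad: 0.01 (-0.56 to 0.57) after LPS and -0.30 (-0.86 to 0.26) without LPS, adjusted p 0.996 and 0.680. The value after LPS changed sign with the scaling, being -0.03 with a common sum per library.

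Fcgr2b, the inhibitory receptor, was higher on average in the silenced libraries without passing the test. It was 10.8, 11.3 and 9.09 FPKM in silenced against 7.75, 5.59 and 6.29 FPKM in control cells after LPS. Without LPS it was 5.80, 7.30 and 9.97 FPKM in silenced against 5.29, 3.93 and 5.91 FPKM in control cells. The groups were apart after LPS, and without LPS silenced replicate 1 lay just under control replicate 3. The differences were 0.60 ± 0.18 (adjusted p = 0.180) after LPS and 0.51 ± 0.18 (adjusted p = 0.323) without LPS, so neither was called.

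Fcer1g and Tyrobp, the adaptor chains, were higher in every silenced library after LPS, again without passing the test. Fcer1g was 132, 155 and 146 FPKM in silenced against 119.3, 112 and 120 FPKM in control cells. Tyrobp was 313, 325 and 299 FPKM in silenced against 253, 281 and 245 FPKM in control cells. The differences of 0.30 ± 0.10 for Fcer1g and 0.27 ± 0.09 for Tyrobp had adjusted p of 0.214 and 0.215. Without LPS, Fcer1g was 140, 133 and 111 FPKM in silenced against 131, 116 and 120 FPKM in control cells, and Tyrobp was 467, 435 and 373 against 417, 405 and 428 FPKM. The silenced libraries spread over the control range there, and the differences were 0.06 ± 0.10 and 0.02 ± 0.09 (adjusted p 0.857 and 0.946), both changing sign, to -0.01 and -0.06, with quantile normalization.

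Trem2 was 16.7, 15.9 and 16.0 FPKM in silenced against 16.4, 15.0 and 13.5 FPKM in control cells after LPS. Without LPS it was 46.0, 41.3 and 42.6 FPKM in silenced against 38.3, 35.8 and 45.7 FPKM in control cells. The groups overlapped in both cases, with differences of 0.11 ± 0.10 after LPS and 0.12 ± 0.10 without LPS (adjusted p 0.698 and 0.669).

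Counted over the 7 genes, 1 was called after LPS, where 0.719% of all genes were. In the same comparison 4 of 7 had every silenced library above every control library, against 7.62% of all genes in that direction. There 4 of 7 also passed an unadjusted p under 0.05, as did 1697 of the 13078 genes. Without LPS none of the 7 was called, where 0.214% of all genes were; at an unadjusted p under 0.05, 2 of 7 passed, as did 1565 of the 13078 genes. No member's groups were free of overlap without LPS, against 18.2% of all genes in either direction. The median difference of the 7 genes was 0.27 after LPS and 0.06 without LPS, beside -0.03 and 0.01 over all genes. The silenced libraries were estimated to be deeper, with means of 15.2 M against 11.9 M fragments after LPS and 11.95 M against 9.12 M without LPS. With rough depth as a covariate, added after the data were seen, Fcgr1 after LPS differed by 0.87 with an adjusted p of 0.0588. The part of the higher Lyz2 and Cd14 in these differences was not tested.

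**Figure D2:**
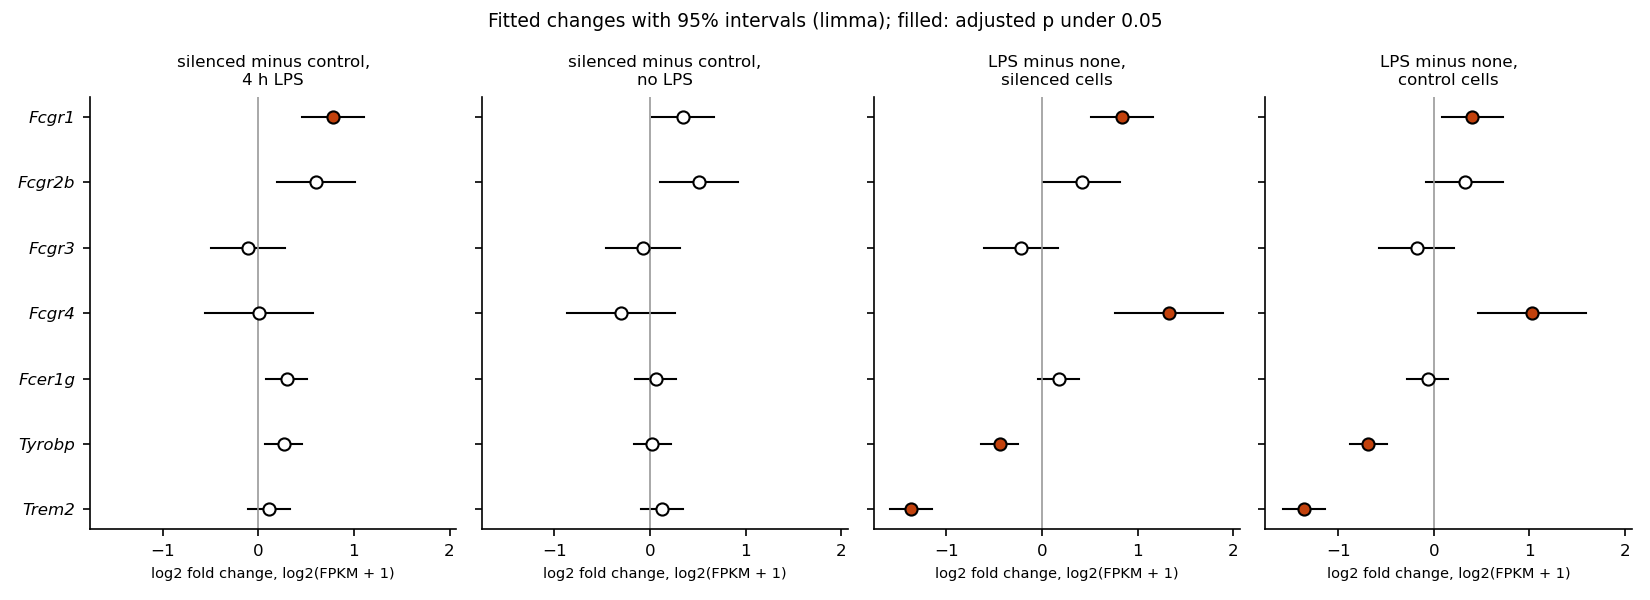
Fitted log2 fold changes on the log2(FPKM + 1) scale (horizontal axis) for the 7 genes in 4 comparisons, with 95% intervals from limma over 12 libraries; filled points have an adjusted p under 0.05. Fcgr1 is filled in 3 of the 4 panels, at 0.78 for silenced minus control after LPS, and Trem2 lies at -1.36 in both LPS panels.

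The second comparison asked how 4 h of LPS altered the genes in silenced and in control cells. The same 4 genes passed the test in both: Fcgr1 and Fcgr4 rose, and Trem2 and Tyrobp fell. In silenced cells 48.5% of all genes were called and in control cells 48.2%, so 4 of 7 is near the background. By direction, 13% of genes rose and 35.5% fell in silenced cells and 15.3% rose and 32.9% fell in control cells, beside 2 and 2 of the 7 genes in each. The same 4 genes were those whose LPS libraries did not overlap the libraries without LPS, against 57.8% of all genes in silenced and 56.2% in control cells. The median of all genes was -0.21 in silenced and -0.17 in control cells; median-ratio scaling moved it by 0.22 and 0.19, and quantile normalization by 0.14 and 0.12, so changes below are read beside that shift.

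Fcgr4 rose the most. It averaged 11.6 ± 3.93 FPKM after LPS and 3.90 ± 1.01 FPKM without LPS in silenced cells, and 11.3 ± 2.61 against 5.07 ± 1.52 FPKM in control cells (SD, n = 3 each). Every LPS library exceeded every library without LPS, and the changes were 1.33 ± 0.26 (adjusted p = 0.00118) in silenced and 1.02 ± 0.26 (adjusted p = 0.00635) in control cells. Fcgr1 averaged 33.9 ± 3.52 FPKM after LPS and 18.5 ± 1.82 FPKM without LPS in silenced cells, a change of 0.84 ± 0.15 (adjusted p = 0.000596). In control cells it averaged 19.3 ± 0.99 FPKM after LPS and 14.6 ± 3.51 FPKM without LPS, and the change of 0.40 ± 0.15 had an adjusted p of 0.0398. The control call was lost, with adjusted p of 0.0504 to 0.151, when any of 6 libraries was left out. These were silenced replicate 2 without LPS, control replicates 1 and 3 without LPS, or control replicate 1, 2 or 3 after LPS. Without control replicate 3 of the cells without LPS, the change was 0.24. It was also lost with no filter (adjusted p = 0.0826) and with only the groups compared (0.0838).

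Trem2 fell to 16.2 ± 0.47 FPKM after LPS in silenced cells, against 43.3 ± 2.45 FPKM without LPS. In control cells it fell to 14.9 ± 1.45 FPKM after LPS, against 39.9 ± 5.14 FPKM without LPS. These changes of -1.36 ± 0.10 in each had adjusted p of 8.49e-07 in silenced and 1.03e-06 in control cells, and over all settings tried they lay between -1.44 and -1.10 in silenced and between -1.43 and -1.14 in control cells. Tyrobp, the adaptor of TREM2, averaged 312 ± 13.2 FPKM after LPS and 425 ± 48.1 FPKM without LPS in silenced cells, and 259 ± 18.9 against 417 ± 11.6 FPKM in control cells. It changed by -0.44 ± 0.09 (adjusted p = 0.0015) in silenced and by -0.68 ± 0.09 (adjusted p = 6.83e-05) in control cells. With median-ratio scaling the silenced value was -0.16 with an adjusted p of 0.136, no longer called.

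Fcgr2b, Fcgr3 and Fcer1g were not called in either. Fcgr2b averaged 10.4 ± 1.16 FPKM after LPS and 7.69 ± 2.11 FPKM without LPS in silenced cells, and 6.54 ± 1.10 against 5.05 ± 1.01 FPKM in control cells, with changes of 0.42 and 0.32 (adjusted p 0.0841 and 0.171). Both were called with median-ratio scaling and with quantile normalization, reaching 0.67 in silenced and 0.56 in control cells. Fcgr3 averaged 7.31 ± 1.15 FPKM after LPS and 8.70 ± 1.88 FPKM without LPS in silenced cells, and 7.96 ± 1.12 against 9.23 ± 2.10 FPKM in control cells. Its changes of -0.22 and -0.18 (adjusted p 0.343 and 0.429) turned to 0.03 and 0.02 with median-ratio scaling and to 0.04 and 0.03 with quantile normalization. Fcer1g changed by 0.18 (adjusted p = 0.160) in silenced and -0.06 (adjusted p = 0.630) in control cells, and these turned to -0.08 with quantile normalization and 0.16 with median-ratio scaling. It was called at 0.45 in silenced cells with median-ratio scaling and at -0.35 in control cells with quantile normalization.

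The LPS response of none of the 7 genes was called as different between silenced and control cells, where 0.0612% of all genes were, and none of the 7 passed an unadjusted p under 0.05, as 1480 of all genes did. Fcgr1 had the smallest unadjusted p: its LPS change was larger in silenced cells by 0.44 (95% interval -0.02 to 0.89), adjusted p 0.460. The differences were 0.25 (-0.03 to 0.52) for Tyrobp, 0.24 (-0.06 to 0.54) for Fcer1g, 0.31 (-0.49 to 1.11) for Fcgr4, 0.09 for Fcgr2b, -0.04 for Fcgr3 and -0.01 for Trem2, the last pair changing sign with median-ratio scaling and quantile normalization. This comparison shares its libraries with the others, so it is no further evidence for them.

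The balance among the receptors is described from FPKM per library, with no test. The 4 Fc-gamma receptor transcripts summed to 63.2 ± 5.98 FPKM in silenced and 45.1 ± 2.36 FPKM in control cells after LPS, and to 38.8 ± 3.18 and 33.9 ± 2.62 FPKM without LPS (SD, n = 3 each). Fcgr1 made up 53.7 ± 3.49% of that sum in silenced cells and 42.9 ± 4.56% in control cells after LPS, with libraries from 49.7% to 56.0% and from 40.0% to 48.2%. Without LPS its share was 48.1 ± 8.31% in silenced and 42.8 ± 8.55% in control cells, with overlap. The activating receptors summed over Fcgr2b gave 5.12 ± 0.93 in silenced and 5.98 ± 0.87 in control cells after LPS, and 4.22 ± 0.99 and 5.99 ± 2.04 without LPS, overlapping each time.

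Fcgr2b over Fcgr3, the low-affinity pair of opposite sign, separated silenced from control libraries with and without LPS. This ratio was singled out from several such quantities, was not tested, and depends on how shared reads were divided. Neither gene was called for silencing, and the share of other gene pairs that separate in this way was not taken. After LPS the ratio ran from 1.21 to 1.78 in silenced and from 0.693 to 1.14 in control libraries, and without LPS from 0.795 to 0.920 in silenced and from 0.496 to 0.652 in control libraries. Their sum, which depends less on how shared reads were divided between them, was 17.7 ± 1.68 FPKM in silenced and 14.5 ± 0.83 FPKM in control cells after LPS, and 16.4 ± 3.97 and 14.3 ± 2.95 FPKM without LPS. The sums did not overlap after LPS and overlapped without LPS. Fcer1g over the summed activating receptors was 2.75 ± 0.12 in silenced and 3.04 ± 0.05 in control cells after LPS, and 4.14 ± 0.63 and 4.30 ± 0.74 without LPS. Tyrobp over Trem2 was 19.3 ± 1.05 in silenced and 17.4 ± 1.74 in control cells after LPS, and 9.82 ± 0.94 and 10.5 ± 1.02 without LPS, with every LPS library above every library without LPS.

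**Figure D3:**
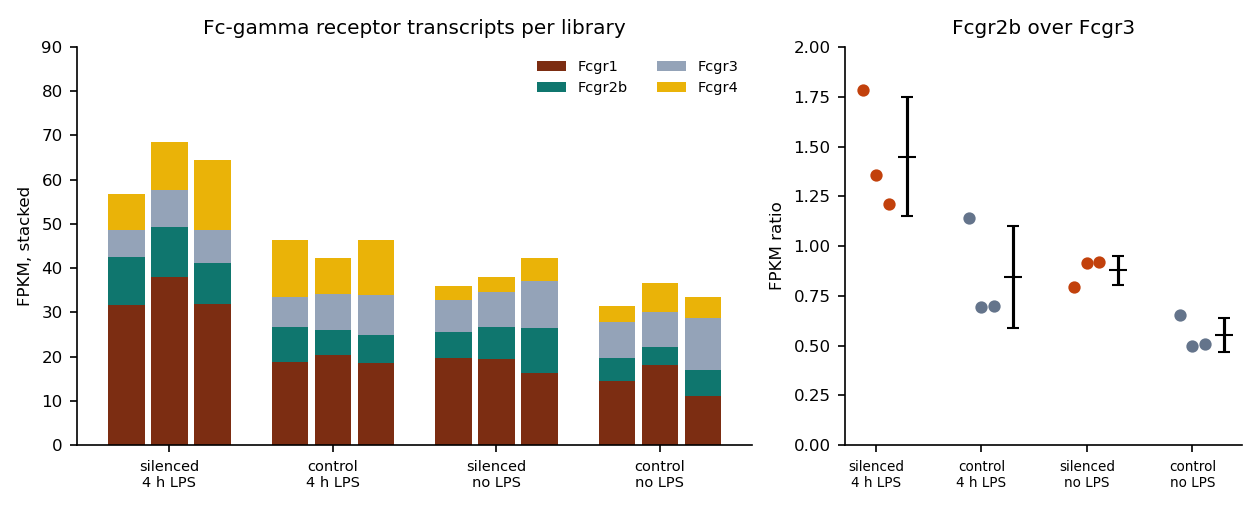
Left, FPKM of the 4 Fc-gamma receptor transcripts stacked for each of 12 libraries (vertical axis from 0), grouped by siRNA and LPS. Right, the ratio of Fcgr2b to Fcgr3 FPKM in each library (dots) with mean ± SD (bars, n = 3), where silenced libraries after LPS lie at 1.21 to 1.78 and control libraries after LPS at 0.693 to 1.14.

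Genes with the profile most like each of the 7 were found as the smallest root mean square difference of centred log2(FPKM + 1) over the 12 libraries. Nearest to Fcgr1 were Il1rl1 at 0.118 and Msr1 at 0.182. Il1rl1 averaged 22.7 FPKM in silenced and 13.8 FPKM in control cells after LPS. It was picked for its likeness to Fcgr1 over these same libraries, so its values are no further evidence for Fcgr1. Nearest to Fcgr2b were Irf8 at 0.186 and Cd200r1 at 0.204. Nearest to Trem2 were Nceh1 at 0.0868 and Tmem206 at 0.0969, and to Tyrobp Phf6 at 0.0914 and Clk1 at 0.0951. For Fcgr4 they were Ext1 at 0.223 and Snord12 at 0.239, for Fcer1g Cstb at 0.0645 and Rpl12 at 0.0683, and for Fcgr3 Sf1 at 0.125 and Wdr26 at 0.134.

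The surrounding pathway was read from 6 lists of genes. Among ITAM-coupled receptors and adaptor chains other than the 7, 10 of 27 were tested. After LPS, 1 was higher in silenced cells and 1 lower, where 0.719% of all genes were called, and none was called without LPS, where 0.214% were. The split after LPS was 2 and 0 with median-ratio scaling and 1 and 0 with quantile normalization. Cd300c2, an activating receptor of the Cd300 family that pairs with DAP12, averaged 13.9 ± 1.05 FPKM in silenced and 8.58 ± 0.41 FPKM in control cells after LPS, and rose by 0.64 ± 0.10 (adjusted p = 0.0291). Siglec15, a DAP12-coupled sialic acid receptor known in osteoclasts, averaged 4.86 ± 1.76 FPKM in silenced and 13.5 ± 4.36 FPKM in control cells after LPS, and fell by 1.30 ± 0.26 (adjusted p = 0.0477). Among 13 tested genes of the list of ITIM-bearing and other inhibitory receptors, Cd200r1, which lacks an ITIM, alone was called. This receptor for CD200 averaged 20.9 ± 1.30 FPKM in silenced and 12.5 ± 0.61 FPKM in control cells after LPS, and rose by 0.70 ± 0.12 (adjusted p = 0.0291). Leaving out 1 library kept the call of Siglec15 in 2, of Cd300c2 in 6 and of Cd200r1 in 7 of 12 fits, with adjusted p up to 0.178, 0.107 and 0.121. Siglec15 kept it without control replicate 2 of the cells without LPS or silenced replicate 3 after LPS. Cd300c2 lost it without any of the 6 libraries after LPS, and Cd200r1 without any of these but control replicate 3. Of the 10 other settings, 3, 8 and 8 kept the call. The members of the Cd300 family resemble each other, so Cd300c2 is uncertain where reads could be shared.

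In the 4 other lists no gene was called for silencing, with or without LPS, in the fit reported. Among 23 genes of proximal ITAM signalling, Plcg2 was nearest: this phospholipase averaged 22.9 ± 0.95 FPKM in silenced and 30.6 ± 0.92 FPKM in control cells after LPS, a difference of -0.40 with an adjusted p of 0.0596. It was called with a filter at FPKM 5 (adjusted p = 0.0433) and without silenced replicate 3 of the cells without LPS. The kinase Src averaged 2.33 ± 0.20 FPKM in silenced and 3.56 ± 0.16 FPKM in control cells without LPS, a difference of -0.45 with an adjusted p of 0.0689. It was called with a pseudocount of 0.1 (adjusted p = 0.0365) and with a filter at FPKM 5. Src passed that filter only through its libraries after LPS, with means of 36.2 FPKM in silenced and 39.2 FPKM in control cells. The call with that filter is therefore no further evidence. The phosphatase Ptpn6, an effector of ITIM receptors, averaged 80.2 ± 7.91 FPKM in silenced and 98.8 ± 6.76 FPKM in control cells after LPS (-0.30, adjusted p = 0.272).

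LPS moved the pathway genes widely, as it did the 48.5% and 48.2% of all genes. The counts by direction that follow stand beside 13% of all genes that rose and 35.5% that fell in silenced cells, and 15.3% and 32.9% in control cells. Of the 23 genes of proximal signalling, 10 rose and 9 fell in silenced cells, and 9 rose and 10 fell in control cells. These near-even balances changed with the scaling, to 10 and 11 in silenced cells with a common sum and to 10 and 7 in control cells with median-ratio scaling. Src rose by 3.48 in silenced and 3.14 in control cells, and Malt1, a partner of BCL10, by 3.59 and 3.39. Fgr rose by 1.90 and 2.06, and the adaptor Lcp2 by 1.82 and 1.86. These were picked by size of change, and other genes of the list had lower means after LPS. Vav1 averaged 16.8 FPKM after LPS and 38.9 FPKM without LPS in silenced cells, and 19.9 against 38.7 FPKM in control cells. Plcg2 averaged 22.9 against 41.1 FPKM in silenced and 30.6 against 42.7 FPKM in control cells. For Card9 these means were 8.42 against 19.3 FPKM and 9.50 against 18.6 FPKM.

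Of 14 genes that restrain ITAM or mediate ITIM signalling, 2 rose and 8 fell in silenced cells, and 1 rose and 9 fell in control cells. Falls outnumbered rises over all genes too. With median-ratio scaling, where 2964 of all genes rose and 2839 fell in silenced cells and 3158 and 2940 in control cells, 4 of the 14 rose and 7 fell in silenced cells, and 5 rose and 7 fell in control cells. Inpp5d, which encodes SHIP1, the lipid phosphatase that Fcgr2b engages, averaged 6.18 ± 1.21 FPKM after LPS and 29.6 ± 0.95 FPKM without LPS in silenced cells. In control cells Inpp5d averaged 7.09 ± 1.41 FPKM after LPS and 31.2 ± 0.93 FPKM without LPS, and it changed by -2.11 in silenced and by -2.01 in control cells. The adaptor Dok3 changed by -1.01 and by -1.09.

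Of the 13 listed inhibitory receptors, 6 rose and 4 fell in silenced cells, and 4 rose and 5 fell in control cells. That balance turned to 5 and 4 in control cells with median-ratio scaling and with quantile normalization. Sirpa, the receptor for CD47, changed by -1.56 in silenced and by -2.24 in control cells, and Siglece rose by 1.16 and 1.37. Lilr4b rose by 2.25 and 2.31, but it has a near-identical copy, Lilrb4a, so both are uncertain. Of the 10 tested ITAM-coupled receptors and other adaptor chains, 4 rose and 1 fell in silenced cells, and 5 rose and 3 fell in control cells. Clec4e, the receptor Mincle that signals through the FcR gamma chain, rose by 3.10 in silenced and 2.85 in control cells. Of 17 genes of the phagocytic cup, 4 rose and 6 fell in silenced cells, and 3 rose and 4 fell in control cells, a balance that turned to 7 and 3 in silenced and 8 and 3 in control cells with median-ratio scaling. The motor Myo1e rose by 1.12 in silenced and 1.38 in control cells. The other cup genes picked by size of change fell in both. Wipf1 changed by -1.02 and -0.98, Elmo1 by -0.86 and -0.79, and the motor Myo1f by -0.66 and -0.90. Among other Fc receptors, 3 of 11 were tested, and Trim21, a cytosolic receptor for antibody, rose by 2.09 in silenced and 2.41 in control cells.

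**Figure D4:**
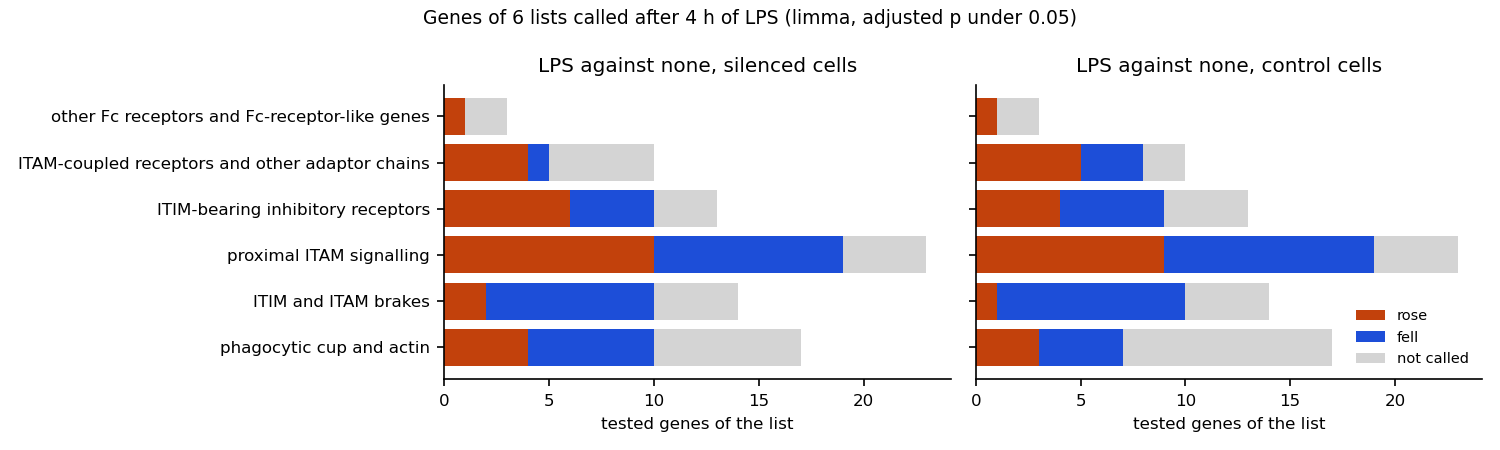
Numbers of tested genes (horizontal axis) of 6 lists that rose, fell or were not called after 4 h of LPS against none, in silenced cells (left) and control cells (right), by limma with adjusted p under 0.05. In the list of ITIM and ITAM brakes, 8 of 14 fell in silenced cells and 9 of 14 in control cells. Over all genes 35.5% fell in silenced and 32.9% in control cells. With median-ratio scaling 7 of the 14 fell in each, while 4 rose in silenced and 5 in control cells.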

How the data were processed

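The FPKM values are the authors' own, deposited in 1 table of 53801 gene records and 12 libraries; HISAT2, StringTie and the build GRCm38 are named per the submitters' processing notes, with no versions, and the RNA was extracted and made into strand-specific libraries per the labels' protocols. Of the records, 53620 were found by ID in GENCODE M21. FPKM are not counts, so limma 3.58.1 in R 4.3.3 was fitted with an intensity trend to log2(FPKM + 1), with 4 group means over 12 libraries (8 residual degrees of freedom), for genes reaching FPKM 1 in 3 or more libraries. Tests were 2-sided, with Benjamini-Hochberg adjustment across all 13078 genes and a threshold of 0.05. The procedure was also run on simulated data with independent noise. The changes planted there were larger than that of Fcgr1 between silenced and control cells after LPS, so that run does not bear on that call. Depth is known only roughly: the share of low values within 1% of a whole step was 4.20% to 8.51%, against 2% by chance. Named genes are the 7 members, Trappc4, the 2 nearest profiles of each member (mean FPKM of at least 5), and from each list up to 4 called genes with the largest change or, with none called, the 2 with the smallest p, of which those with the clearest roles are printed. Members and lists were chosen with earlier results of these data known. Vav1 and Card9 were added after the values were seen, as examples of lower means after LPS. Alternatives were a pseudocount of 0.1, no filter, a filter at FPKM 5, 3 other scalings, only the groups compared, no trend, the replicate number as a block, rough depth as a covariate and leaving out each library. Promoters are from RefSeq and transcripts from GENCODE.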

Additional observations from a re-analysis of the deposited data

How the results depend on the processing

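Calls of the LPS response of Fcgr1 in silenced cells, of Fcgr4 and Trem2 in both and of Tyrobp in control cells held in all 22 other fits. For silenced against control after LPS, 94 genes were called, and 38 with quantile normalization, 0 with only the groups compared, 50 with no intensity trend and 18 with rough depth as a covariate, which was chosen after seeing the data; without 1 library it was 10 to 91. The 1 member called, Fcgr1, became 0 members with no filter and with each of these 4 settings, and 0 to 1 without 1 library. Without LPS, 28 genes were called, and 6 with only the groups compared, 10 with no trend, 9 with rough depth and 3 to 41 without 1 library. The interaction had 8 calls, 5 with a pseudocount of 0.1, 4 with no trend and 0 to 20 without 1 library. Same-numbered libraries deviated together at r of -0.03 to 0.19, not all over 0.1. With 3 libraries per group such values cannot decide if the numbers pair the samples, and the labels do not say. With the replicate block 48 genes were called for silencing without LPS and 96 after LPS. It gave 6595 and 6558 calls for LPS in silenced and control cells, and 10 for the interaction. The counts of members called were unchanged, and Fcgr1 (silenced against control after LPS) had an adjusted p of 0.0194. The share of higher calls after LPS (silenced against control) was 43.6%, but 60.7% with median-ratio scaling and 73.7% with quantile normalization; for LPS it was 26.8%, 51.1% and 40.2% in silenced and 31.7%, 51.8% and 42.6% in control cells; for the interaction it was 62.5%, but 83.3% with median-ratio scaling.

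Sign changes were limited to Trappc4 and to members not called. With median-ratio scaling the LPS change became 0.033 in silenced and 0.022 in control cells for Fcgr3, 0.16 in control cells for Fcer1g and 0.16 for Trappc4, and the interaction 0.011 for Fcgr3 and 0.043 for Trem2. With quantile normalization the difference without LPS became -0.0094 for Fcer1g and -0.061 for Tyrobp, the LPS change 0.035 in silenced and 0.027 in control cells for Fcgr3, -0.081 in silenced cells for Fcer1g and 0.076 in control cells for Trappc4, and the interaction 0.0079 for Fcgr3 and 0.053 for Trem2. Fcgr4 after LPS (silenced minus control) became -0.032 with a common sum and -0.083 with rough depth, and the LPS change of Trappc4 in control cells 0.11 with rough depth. Leaving out 1 library gave without LPS -0.23 to 0.087 for Fcgr3, -0.010 to 0.16 for Fcer1g and -0.048 to 0.11 for Tyrobp, after LPS -0.22 to 0.22 for Fcgr4, for the interaction -0.070 to 0.27 for Fcgr2b, -0.11 to 0.064 for Trem2 and -0.20 to 0.12 for Fcgr3, and -0.20 to 0.14 for the LPS change of Trappc4 in control cells. The cause of these changes was not tested. Across all named genes and settings, 2167 values kept direction and side of the threshold, 74 lost a call, 18 gained one and 37 changed sign. Rough depths of 7.36 to 17.6 M fragments and 3 libraries per group limit what can be seen for transcripts as low as Fcgr4.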
